A study of Mus musculus with 12 samples.

Results

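Kinesins are motor proteins that walk along microtubules and carry cargo, or that bind microtubule ends and shorten them. Some members of the family work on the mitotic spindle and at the midbody of dividing cells, where they separate the poles, move the chromosomes and complete cytokinesis. Others carry vesicles, organelles and protein complexes along axons and dendrites of neurons that no longer divide, and a further set acts at microtubule ends and in cilia. In cultures of the postnatal hippocampus both kinds are found side by side, since neurons share the dish with progenitors and glia that can still divide.

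The genes described here are those named Kif with a number or Kifc with a number whose mean deposited count over the 12 libraries was at least 10. The rule gave 38 of 40 genes with such names, among 19336 named loci. By their known roles they were put in 3 classes: 12 spindle kinesins, 15 transport kinesins and 11 kinesins of microtubule ends and cilia. Kif2a, which also acts at spindle poles, was put in the last class and is not counted among the 12. Just inside the limit were Kif14 with a mean count of 16.4 and Kif24 with 26.0, and just outside were Kif28 with 4.07 and Kif12 with 0.0912. All 38 passed the filter on low counts. Kif2b, a further spindle kinesin, is not analysed here, and Cenpe, a kinesin of the kinetochore whose name falls outside the rule, is described among the partners of the spindle.

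RNA came from neuronal cultures of the hippocampus of WT mice taken at P4. The cultures grew for 8 days, by the sample labels, and then received vehicle or 20 µM DAPT, an inhibitor of γ-secretase, followed by vehicle or 20 nM sErbB4, a recombinant soluble ectodomain of ErbB4 that binds neuregulin on the cell surface (named as mouse and as human in different places of the study), for 4 h. The groups were vehicle, sErbB4, DAPT, and DAPT + sErbB4, with 3 libraries each from separate platings, and neither a mutation nor a transgene was carried by any of them. The start and length of the DAPT treatment are given differently in the labels and in different places of the study. The cultures are mixed: neuron, radial glia, astrocyte and oligodendrocyte precursor markers were all detected, and in such bulk RNA fewer cells of a type and less RNA per cell cannot be told apart.

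Libraries held from 18.7 to 30.8 counts on named loci, in units of 1000000. Of these, 31.4 to 44.6% lay on the ribosomal RNA locus Rn45s. Levels are given as CPM, the counts per 1000000 after TMM scaling, so that a spindle kinesin at 1 CPM rested on few counts in a library. On the principal components of all genes, sErbB4 replicate 1 and vehicle replicate 3 stood apart from the other libraries without DAPT, and results are given without them where they differ. A gene was called changed at a Benjamini-Hochberg adjusted p under 0.05 over 15656 genes in edgeR's quasi-likelihood test and a log2 fold change beyond 0.32 in either direction.

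DAPT lowered all 12 spindle kinesins, both without and with sErbB4. The transport kinesins stayed near their vehicle level in median and in sum, while single members went both ways. In DAPT against vehicle 14 of the 38 kinesins fell, against a background of 6.92% of all genes tested, and 2 rose, against 4.66%. The 14 were the 12 spindle kinesins and the transport kinesins Kif1c and Kifc3. In DAPT + sErbB4 against sErbB4 the same 14 fell (background 7.15%) and 1 rose (background 4.55%). That comparison shares no library with the first, but both came from a single fit with a common estimate of the spread. The median log2 fold change of the spindle kinesins was -1.20 without sErbB4 and -1.11 with it, that of the transport kinesins 0.03 and 0.06, and that of all genes 0.01 in each. When both libraries that stood apart were left out, 11 of 12 spindle kinesins were still called in each comparison, without Kif20b in the first (adjusted p = 0.062) and without Kif14 in the second (adjusted p = 0.10). The same 2 calls were lost with the replicate number as a block. The adjusted p was then 0.051 for Kif20b in the first comparison and 0.061 for Kif14 in the second.

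The summed level shows the contrast between the classes in single libraries. The 12 spindle kinesins together held 47.5, 51.2 and 52.2 CPM in the vehicle libraries and 47.3, 50.1 and 49.8 in sErbB4, against 23.3, 22.9 and 24.2 in DAPT and 22.5, 22.6 and 21.5 in DAPT + sErbB4. The 6 libraries with DAPT therefore lie apart from the 6 without it. The 15 transport kinesins together ranged from 1035 to 1098 CPM without DAPT and from 1054 to 1099 CPM with it, so these ranges overlap almost whole. Opposite changes of members offset each other in this sum, which weights genes by their level. From vehicle to DAPT the mean of Kif1c went from 104.7 to 73.3 CPM, and that of Kif1a from 222.8 to 249.2 CPM.

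**Figure D1:**
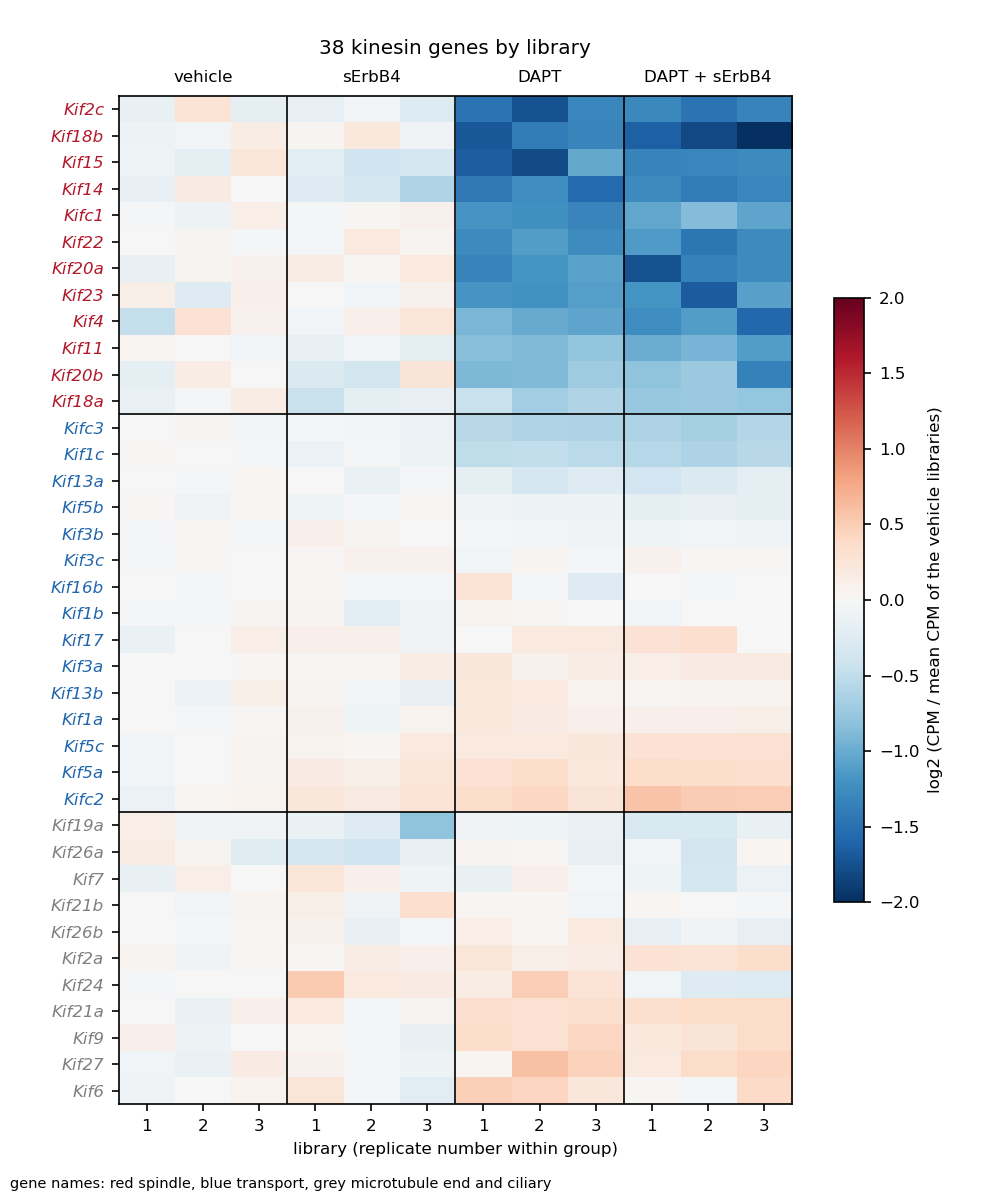
Level of each of the 38 kinesin genes (rows) in each of the 12 libraries (columns), as log2 of the CPM over the mean CPM of the vehicle libraries; blue is lower and red higher, and values under -2 take the darkest blue. The 12 spindle kinesins (red names) are blue in all 6 libraries with DAPT, while among the 15 transport kinesins (blue names) the clearest blue blocks there are those of Kifc3 and Kif1c.

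Among the motors that build a bipolar spindle, Kif11, which slides microtubules apart to separate the poles, was at 7.48, 7.36 and 7.01 CPM in vehicle and 6.56, 7.02 and 6.42 in sErbB4, against 4.02, 3.93 and 4.21 in DAPT and 3.65, 3.84 and 3.34 in DAPT + sErbB4. Every library with DAPT was lower than every library without it. The log2 fold change was -0.84 (SE 0.07, adjusted p = 1.2e-05) without sErbB4 and -0.89 (SE 0.08, adjusted p = 7.4e-06) with it. Kif15, which helps Kif11 to keep the poles apart, was at 1.76 to 2.73 CPM in the 6 libraries without DAPT and at 0.67 to 1.14 CPM in the 6 with it. Kif15 fell by 1.42 (SE 0.22, adjusted p = 0.00072) and by 0.98 (SE 0.22, adjusted p = 0.0069) on the log2 scale. Kifc1, a motor that walks to the minus end and gathers microtubules at the poles, was at 7.48, 7.19 and 8.46 CPM in vehicle and 7.57, 7.88 and 8.18 in sErbB4, against 3.39, 3.31 and 3.10 in DAPT and 3.74, 4.24 and 3.70 in DAPT + sErbB4. It had log2 fold changes of -1.24 (SE 0.09, adjusted p = 2.2e-06) and -1.02 (SE 0.08, adjusted p = 6.2e-06). Kifc1 has a near copy in the mouse genome, Kifc5b, with log2 fold changes of -0.97 and -0.89, and reads may have been split between the 2 genes, so the value of either is uncertain.

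Other spindle kinesins work on the chromosomes and on microtubule ends. Of the chromokinesins, which push chromosome arms away from the poles, Kif22 was at 5.82 to 6.89 CPM without DAPT and 2.21 to 2.77 CPM with it, and Kif4 at 2.58 to 4.38 CPM and 1.21 to 1.91 CPM, so neither overlapped. Kif22 had log2 fold changes of -1.21 (SE 0.10, adjusted p = 7.6e-06) and -1.35 (SE 0.10, adjusted p = 2.8e-06), and Kif4 of -0.98 (SE 0.19, adjusted p = 0.0034) and -1.40 (SE 0.19, adjusted p = 0.00032). Kif2c, a depolymerase that frees wrongly attached microtubules at centromeres, was at 3.64, 4.89 and 3.55 CPM in vehicle and 3.58, 3.89 and 3.31 in sErbB4, against 1.44, 1.21 and 1.63 in DAPT and 1.65, 1.45 and 1.60 in DAPT + sErbB4. The vehicle libraries varied most, by vehicle replicate 2, and still lay above all libraries with DAPT. Kif2c had log2 fold changes of -1.48 (SE 0.16, adjusted p = 5.7e-05) and -1.20 (SE 0.16, adjusted p = 0.00023).

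The related motors Kif18a and Kif18b, which limit the growth of spindle microtubules, differed in the size of their fall, and in DAPT + sErbB4 against sErbB4 they had the lowest and the highest value of the class. Kif18b, which acts on astral microtubules, was at 3.64, 3.76 and 4.32 CPM in vehicle and 4.07, 4.53 and 3.72 in sErbB4, against 1.21, 1.48 and 1.57 in DAPT and 1.26, 1.12 and 0.889 in DAPT + sErbB4. The lowest library of all was one with both agents. Kif18b had log2 fold changes of -1.46 (SE 0.16, adjusted p = 4.9e-05) and -1.92 (SE 0.16, adjusted p = 6.0e-06). Kif18a, which dampens the movements of chromosomes at the metaphase plate, changed least, by -0.57 (SE 0.11, adjusted p = 0.0033) and -0.50 (SE 0.11, adjusted p = 0.0073). Its libraries held 4.31, 4.61 and 5.19 CPM in vehicle and 3.46, 4.12 and 4.21 in sErbB4, against 3.47, 2.91 and 3.10 in DAPT and 2.78, 2.82 and 2.74 in DAPT + sErbB4. It was the one spindle kinesin whose libraries overlapped, with 3.46 CPM in the lowest library without DAPT and 3.47 CPM in the highest with it. The other 11 did not overlap, against a background of 11.8% of all genes that were lower in all 6 libraries with DAPT.

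The motors of the midzone and of cytokinesis fell as well. Kif20a, which carries the chromosomal passenger complex to the central spindle, was at 4.34, 5.00 and 5.10 CPM in vehicle and 5.31, 4.92 and 5.52 in sErbB4, against 1.91, 2.10 and 2.29 in DAPT and 1.44, 1.88 and 1.99 in DAPT + sErbB4. On the log2 scale it changed by -1.19 (SE 0.13, adjusted p = 5.7e-05) and -1.56 (SE 0.13, adjusted p = 6.4e-06). Kif23, the motor of the centralspindlin complex that bundles midzone microtubules, was at 3.37, 2.58 and 3.32 CPM in vehicle and 3.06, 2.97 and 3.27 in sErbB4, against 1.36, 1.34 and 1.44 in DAPT and 1.35, 0.977 and 1.46 in DAPT + sErbB4. The fitted log2 fold changes were -1.16 (SE 0.17, adjusted p = 0.00041) and -1.29 (SE 0.17, adjusted p = 0.00018), and the 2 sets of 6 libraries lay well apart.

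Kif20b and Kif14, both needed to finish cytokinesis, were the spindle kinesins with the fewest counts and the widest errors. Kif20b was at 1.40 to 2.17 CPM without DAPT and 0.711 to 1.11 CPM with it, with log2 fold changes of -0.82 (SE 0.24, adjusted p = 0.028) and -0.83 (SE 0.24, adjusted p = 0.025). Kif14 was at 0.939, 1.18 and 1.05 CPM in vehicle and 0.886, 0.830 and 0.695 in sErbB4, against 0.390, 0.447 and 0.359 in DAPT and 0.435, 0.398 and 0.427 in DAPT + sErbB4. The libraries with and without DAPT did not overlap, although Kif14 held few counts in each. Its log2 fold changes were -1.39 (SE 0.28, adjusted p = 0.0040) and -0.93 (SE 0.28, adjusted p = 0.031), and the second call was lost when any 1 of 8 of the 12 libraries was left out, with an adjusted p of up to 0.11. The call of Kif20b in DAPT against vehicle was likewise lost without vehicle replicate 2 or 3 or without any DAPT library, with an adjusted p of up to 0.089, and in the second comparison without replicate 3 of sErbB4 or of DAPT + sErbB4, with an adjusted p of up to 0.10. The exons of Kif20a, Kif4 and Kif18a overlap those of Cdc23, Pdzd11 and Mettl15 on the other strand by 1271, 832 and 11 bases, and since it is not stated that the counting used strand, reads of these neighbours cannot be told apart from theirs there.

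**Figure D2:**
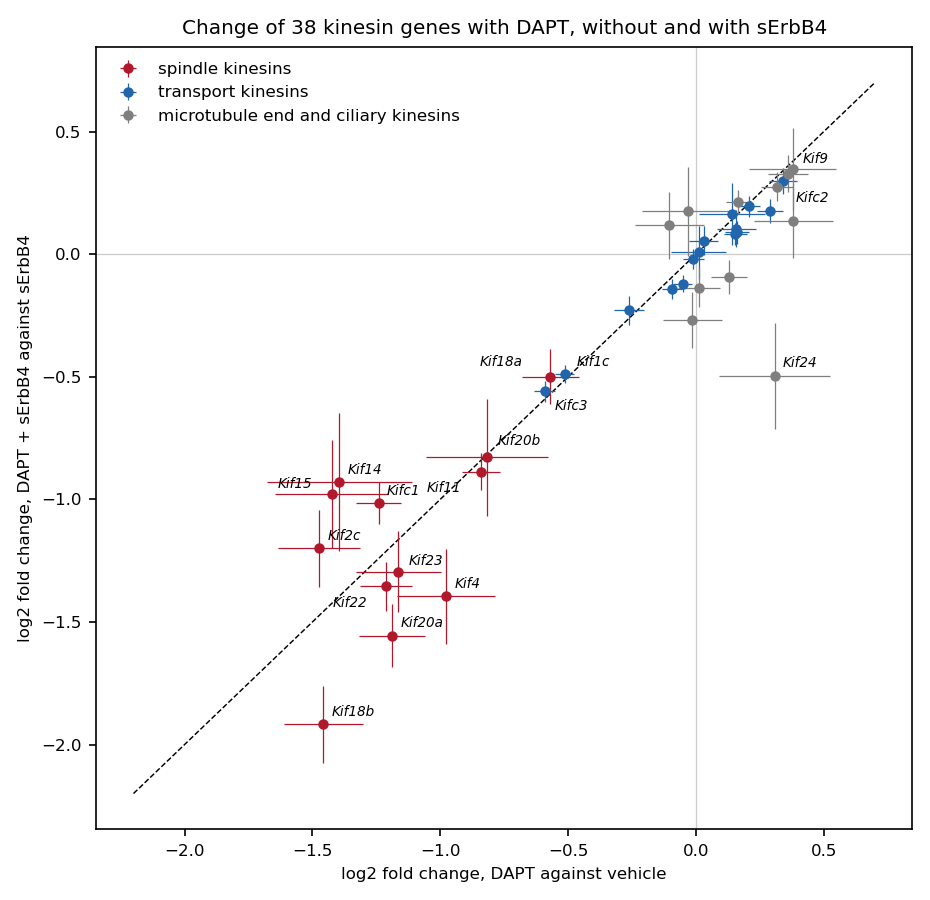
Log2 fold change of each of the 38 kinesin genes in DAPT against vehicle (horizontal) and in DAPT + sErbB4 against sErbB4 (vertical), with SE as bars; the dashed line marks equal changes. All 12 spindle kinesins (red) lie between -0.57 and -1.48 on the horizontal and between -0.50 and -1.92 on the vertical axis, and Kif1c and Kifc3 (blue) sit beside Kif18a, the least changed of them.

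Because the spindle kinesins fell together, their promoters were compared with those of the transport kinesins. Many genes used late in the cell cycle carry a cell cycle genes homology region near the transcription start, whose common core is TTTGAA, often with a CCAAT box a short way upstream that the factor NF-Y binds. RefSeq promoter windows on GRCm38.p6, from 250 bases before to 50 bases after the start, were at hand for 30 of the 38 kinesins, and both strands were searched. Shown here are 3 spindle kinesins that hold both sequences near the start, the spindle kinesin Kif18a, and the axonal motor Kif5c, each from 70 bases before to 10 bases after the RefSeq start. Capitals mark TTTGAA or its reverse complement TTCAAA, and CCAAT or its reverse complement ATTGG. The stretches lie at chr19:37376312-37376391 on the plus strand for Kif11, chr11:102925115-102925194 on the minus strand for Kif18b, chr9:61946790-61946869 on the minus strand for Kif23, chr2:109280668-109280747 on the plus strand for Kif18a and chr2:49619216-49619295 on the plus strand for Kif5c.
Kif11: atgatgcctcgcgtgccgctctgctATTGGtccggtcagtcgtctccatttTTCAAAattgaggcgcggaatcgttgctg
Kif18b: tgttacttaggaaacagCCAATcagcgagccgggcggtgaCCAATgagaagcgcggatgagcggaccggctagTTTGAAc
Kif23: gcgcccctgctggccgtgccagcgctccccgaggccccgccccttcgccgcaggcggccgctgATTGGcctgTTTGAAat
Kif18a: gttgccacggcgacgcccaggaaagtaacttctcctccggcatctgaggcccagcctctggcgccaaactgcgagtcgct
Kif5c: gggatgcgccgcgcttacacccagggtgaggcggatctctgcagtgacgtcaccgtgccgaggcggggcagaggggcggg

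TTTGAA was present in the windows of 10 of 11 spindle kinesins, 1 of 10 transport kinesins and 2 of 9 kinesins of microtubule ends and cilia, and in 14.1% of the windows of 11891 genes tested. From 50 bases before the start to the end of the window it was present in 8 of 11, 1 of 10 and 1 of 9, and in 3.57% of the genes tested. CCAAT was present in 7 of 11, 3 of 10 and 4 of 9 (43.0% of the genes tested), and both sequences stood in the same gene's window in 7 of 11, 0 of 10 and 2 of 9 (5.90%). GGGCGG, the core of the GC box, showed the other order, with 6 of 11, 8 of 10 and 7 of 9 (67.2%). Kif18a, the least lowered of the class, was the one spindle kinesin in whose window TTTGAA was not found. Other genes went the other way. Kif26b and Kif27 hold TTTGAA and CCAAT and were called in neither comparison, and Kif1c fell with no TTTGAA in its window. All of the matches are of letters and not shown sites. The stretch near the start was chosen after the positions were seen, and no test was made. The RefSeq start lay within 50 bases of the GENCODE 5′ end in 21 of the 30 genes. Of the spindle kinesins it lay farther off for Kif22 (51 bases), Kif4 (328), Kif14 (1505) and Kif2c (3867), and Kif22 and Kif4 are among the 8 counted with TTTGAA near the start. The match of Kif1a is in a window 19471 bases away.

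**Figure D3:**
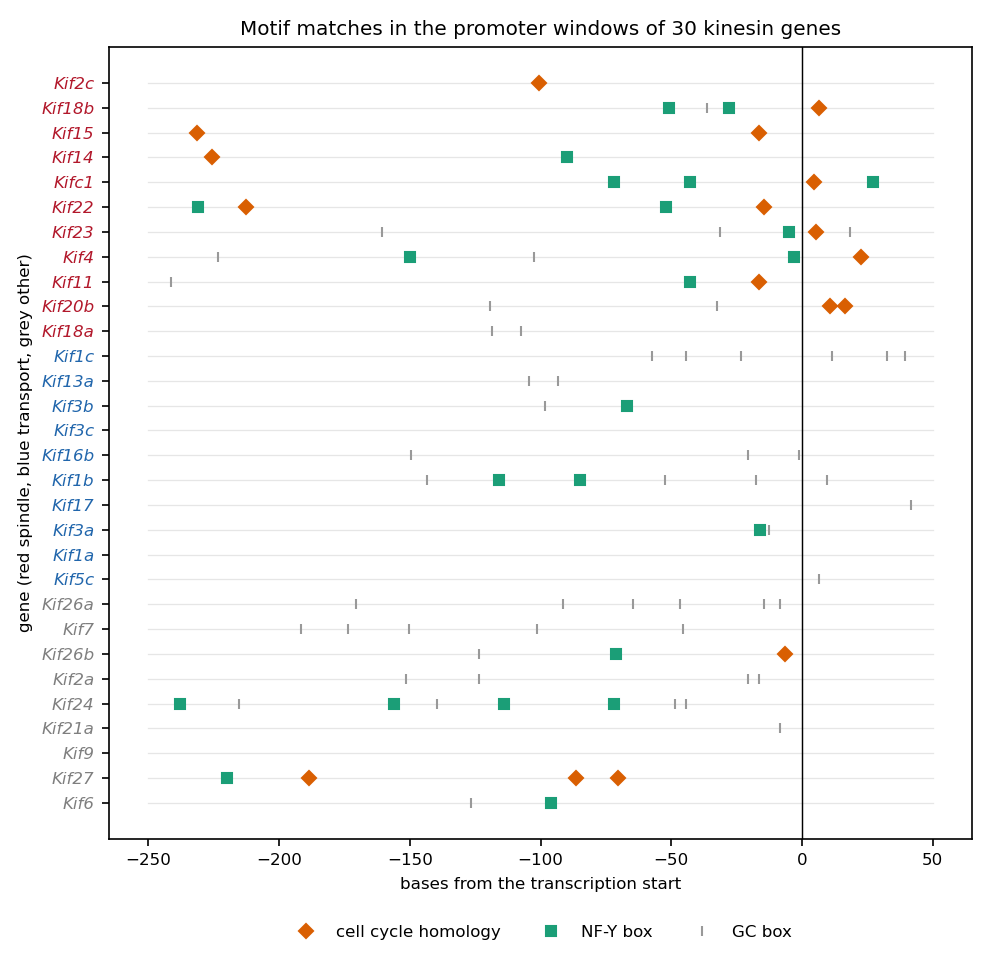
Positions of matches in the first RefSeq promoter window of 30 kinesin genes, in bases from the transcription start (vertical line), with orange diamonds for the core of the cell cycle genes homology region, green squares for the NF-Y box and grey ticks for the GC box. The orange diamonds gather near the start in the spindle kinesins (red names), 8 of 11 of which have one there; the single transport kinesin with a match, Kif1a, has it in a second window that is not drawn.

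The transport kinesins did not move in a common direction as a class, and among them both directions occurred. In DAPT against vehicle 2 of 15 fell and 1 rose by the call rule, and a further 4 were higher and 1 was lower with an adjusted p under 0.05 but a log2 fold change under the limit. In DAPT + sErbB4 against sErbB4 2 fell, 0 rose, and 3 were higher and 3 lower in that weaker way. With the called genes included, 8 of 15 had an adjusted p under 0.05 in each comparison, against 3706 and 3840 of 15656 genes. Of the libraries with and without DAPT, those of Kif13a, Kif1c, Kif3b and Kifc3 did not overlap and were lower with DAPT (background 11.8% of all genes), and those of Kif1a and Kif5c did not overlap and were higher (background 8.6% of all genes).

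Kif1c and Kifc3 fell in each comparison with small errors. Kif1c, a motor of Golgi and dense-core vesicle traffic that is not particular to neurons, was at 106, 105 and 102 CPM in vehicle and 96.5, 102 and 97.4 in sErbB4, against 74.0, 74.2 and 71.7 in DAPT and 70.8, 68.3 and 71.5 in DAPT + sErbB4. Its log2 fold changes were -0.51 (SE 0.04, adjusted p = 2.6e-06) and -0.49 (SE 0.04, adjusted p = 3.3e-06). Kifc3, a motor directed to the minus end that works at the Golgi and at cell junctions, was at 62.8, 65.5 and 60.7 CPM in vehicle and 61.7, 60.9 and 58.2 in sErbB4, against 42.7, 41.7 and 41.0 in DAPT and 41.1, 39.6 and 42.0 in DAPT + sErbB4. For Kifc3 the log2 fold changes were -0.59 (SE 0.04, adjusted p = 2.5e-06) and -0.56 (SE 0.04, adjusted p = 3.2e-06). Kif13a, which moves endosomes, was lower by a smaller amount, with log2 fold changes of -0.26 (SE 0.06, adjusted p = 0.0074) and -0.23 (SE 0.06, adjusted p = 0.014), under the limit on the fold change.

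Kifc2 was the one transport kinesin called higher. Kifc2, a motor directed to the minus end that is abundant in neurons, was at 26.3, 29.2 and 29.8 CPM in vehicle and 33.2, 32.2 and 34.2 in sErbB4, against 36.4, 37.7 and 33.9 in DAPT and 42.4, 40.3 and 39.9 in DAPT + sErbB4. The sErbB4 and DAPT groups overlapped, while vehicle was below and DAPT + sErbB4 above all other libraries. Kifc2 rose in DAPT against vehicle, by 0.34 on the log2 scale (SE 0.06, adjusted p = 0.0010), and had 0.30 (SE 0.05, adjusted p = 0.0019) with sErbB4, just under the limit. The first call was lost without vehicle replicate 1 (0.29) or DAPT replicate 2 (0.31), each with an adjusted p under 0.01.

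Kif5a and Kif5c, the heavy chains of conventional kinesin that are enriched in neurons, were higher with DAPT but under the limit on the fold change. Kif5a was at 75.2, 78.4 and 81.8 CPM in vehicle and 88.2, 85.0 and 92.9 in sErbB4, against 95.6, 101 and 90.9 in DAPT and 102, 99.8 and 99.4 in DAPT + sErbB4. For Kif5a the log2 fold changes were 0.29 (SE 0.05, adjusted p = 0.0015) and 0.18 (SE 0.05, adjusted p = 0.022), and the highest sErbB4 library overlapped the lowest DAPT library. Without DAPT replicate 3 Kif5a was called in the first comparison, at 0.34. Kif5c was at 112, 116 and 119.9 CPM in vehicle and 121, 119 and 132 in sErbB4, against 133, 133 and 135 in DAPT and 141, 142 and 142 in DAPT + sErbB4. Its log2 fold changes were 0.21 (SE 0.04, adjusted p = 0.0047) and 0.19 (SE 0.04, adjusted p = 0.0062). Kif5b, the heavy chain found in most cell types, had log2 fold changes of -0.09 (SE 0.04, adjusted p = 0.12) and -0.14 (SE 0.04, adjusted p = 0.023).

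Kif1a, the motor of synaptic vesicle precursors, was at 224, 217 and 227 CPM in vehicle and 236, 210.3 and 234 in sErbB4, against 258, 251 and 239 in DAPT and 239.7, 240.2 and 243 in DAPT + sErbB4. Every library with DAPT was above every library without it, by a narrow margin. The log2 fold changes were 0.16 (SE 0.05, adjusted p = 0.025) and 0.09 (SE 0.05, adjusted p = 0.20). Kif1b, a motor of mitochondria and synaptic vesicle precursors, had 0.03 (SE 0.06) and 0.06 (SE 0.06). Of the subunits of the heterotrimeric motor of axons and cilia, Kif3a had 0.15 (SE 0.04, adjusted p = 0.028) and 0.08 (SE 0.04), Kif3b had -0.05 (SE 0.04) and -0.12 (SE 0.04, adjusted p = 0.030), and Kif3c had -0.01 (SE 0.04) and -0.02 (SE 0.04). The dendritic motor Kif17 had 0.14 (SE 0.13) and 0.16 (SE 0.13), Kif13b, which carries membrane proteins to the cell surface, had 0.16 (SE 0.07) and 0.10 (SE 0.07), and Kif16b, a motor of early endosomes, had 0.01 (SE 0.11) in each. The values given without a p missed the threshold.

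**Figure D4:**
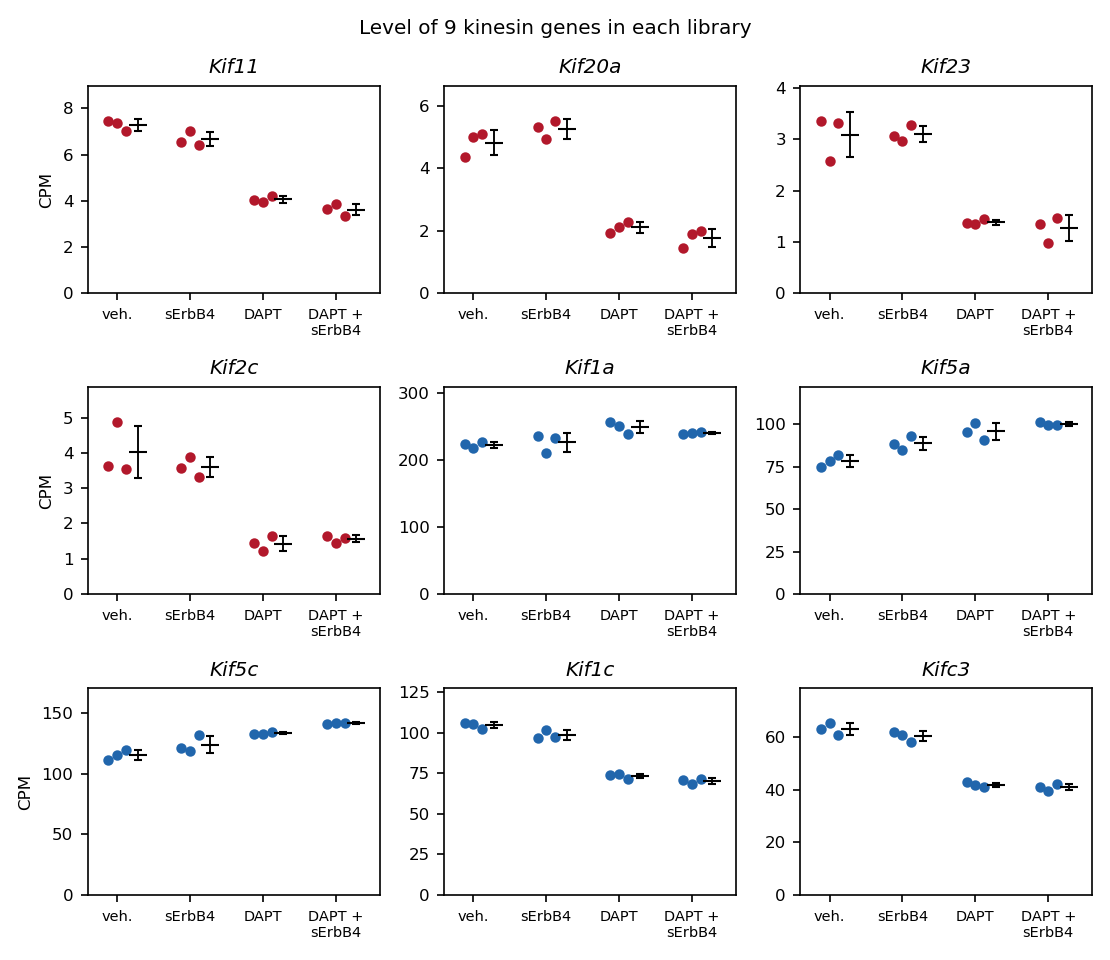
CPM of 9 kinesin genes in each library (points, 3 per group, in the order vehicle, sErbB4, DAPT and DAPT + sErbB4), with the group mean and SD beside them in black; each vertical axis starts at 0. Kif11, Kif20a, Kif23 and Kif2c (red) and the transport kinesins Kif1c and Kifc3 step down with DAPT, while Kif1a, Kif5a and Kif5c are slightly higher.

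Among the 11 kinesins of microtubule ends and cilia, Kif9 alone was called, and it rose, while the median log2 fold change of the class was 0.17 and 0.14. Kif9, a motor of the axoneme of motile cilia, was at 5.99, 5.23 and 5.60 CPM in vehicle and 5.76, 5.49 and 5.07 in sErbB4, against 7.25, 6.93 and 7.45 in DAPT and 6.48, 6.73 and 7.26 in DAPT + sErbB4. The libraries with DAPT all lay above those without it. Its log2 fold changes were 0.36 (SE 0.08, adjusted p = 0.0055) and 0.33 (SE 0.08, adjusted p = 0.0083), close to the limit of 0.32, and the call was lost without vehicle replicate 2 in the first comparison (0.32) and without sErbB4 replicate 3 (0.28) or DAPT + sErbB4 replicate 3 (0.28) in the second. Kif21a, which pauses microtubule growth in axons, lay just on the other side of the limit, with 0.32 (SE 0.06, adjusted p = 0.0032) and 0.28 (SE 0.06, adjusted p = 0.0062), and was called in the first comparison when any of 5 libraries was left out and in the second without sErbB4 replicate 1 (0.34). Kif2a, a depolymerase related to Kif2c, trims axon branches and also acts at spindle poles. Kif2a was higher by 0.17 (SE 0.05, adjusted p = 0.032) and 0.21 (SE 0.05, adjusted p = 0.0077), while Kif2c fell. Since Kif2a was not counted among the spindle kinesins, the fall of that whole class does not include it. The other 8 (Kif6, Kif7, Kif19a, Kif21b, Kif24, Kif26a, Kif26b and Kif27) missed the threshold in each comparison and ranged from -0.10 to 0.38 and from -0.50 to 0.35. Of these, Kif27 was called in the first comparison without DAPT replicate 1 (0.53, adjusted p = 0.045). The lowest of these values, -0.50 for Kif24, a kinesin that restrains cilium assembly, rested on about 1 CPM.

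Genes that work together with the spindle kinesins moved with them. Over all genes tested, 6.92% fell in DAPT against vehicle and 7.15% in DAPT + sErbB4 against sErbB4. Of 20 partners of the spindle, 17 fell and 0 rose in each of the 2 comparisons, with a median log2 fold change of -1.09 and -0.94, and Numa1, Ckap5 and Cit were the 3 that were not called. Tpx2, which targets Aurora A and Kif15 to the spindle, had -1.51 (SE 0.12) and -1.28 (SE 0.11), and Prc1, which bundles midzone microtubules with Kif4, had -1.38 (SE 0.09) and -1.40 (SE 0.09). The mitotic kinase Plk1 had -1.33 (SE 0.10) and -1.57 (SE 0.10), and Cdca8, a subunit of the chromosomal passenger complex that Kif20a carries, had -1.27 (SE 0.15) and -1.22 (SE 0.15), with adjusted p values of at most 0.00011 for all 4. The kinetochore motor Cenpe had -1.10 (SE 0.11) and -0.92 (SE 0.11). Of 10 genes that mark cycling cells, 9 fell in each comparison, all but Pcna, with medians of -1.27 and -1.22, among them the cyclins Ccna2 (-1.49 in each, SE 0.12) and Ccnb1 (-1.45 and -1.49, SE 0.12), the nucleotide reductase subunit Rrm2 (-1.33 and -1.19, SE 0.07) and the topoisomerase Top2a (-1.31 and -1.29, SE 0.07). TTTGAA from 50 bases before the start onward was found in 11 of 17 spindle partners with a window and in 2 of 9 cycling markers, against 3.57% of the genes tested.

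The genes that work with the transport kinesins had small median changes. Over all genes tested, 6.92% fell and 4.66% rose in the first comparison, and 7.15% fell and 4.55% rose in the second. Of 23 light chains, adaptors and other cargo partners 0 fell and 1 rose in each comparison (medians 0.09 and 0.07), the calsyntenin Clstn2, with log2 fold changes of 0.33 (SE 0.07, adjusted p = 0.0062) and 0.34 (SE 0.07, adjusted p = 0.0052). Of 23 genes of dynein and dynactin, the motor complex that runs the other way, 0 were called in edgeR in either comparison. Their medians were 0.04 and 0.03, and 6 and 4 had an unadjusted p under 0.05, against 5420 and 5589 of 15656 genes. Dynll2 and Dynlrb1, named for their mean counts, had 0.04 (SE 0.04) and 0.0061 (SE 0.04) in DAPT against vehicle. Of 22 tubulins and microtubule-binding proteins of neurons 2 rose and 2 fell in the first comparison and 1 rose and 2 fell in the second, with medians of 0.10 and 0.12. The tubulins Tubb2a (-0.51 and -0.55, SE 0.08) and Tubb2b (-0.42 and -0.44, SE 0.09) fell, the destabilising protein Stmn2 (0.34 and 0.35, SE 0.04) rose, and Map1b rose in the first comparison (0.33, SE 0.10, adjusted p = 0.034) and had 0.25 (SE 0.10, adjusted p = 0.089) in the second. TTTGAA near the start was found in 0 of 20 cargo partners, 0 of 17 dynein and dynactin genes and 0 of 15 microtubule proteins with a window.

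Markers of cell types moved in the same libraries. The shares over all genes were 6.92% and 7.15% lower, and 4.66% and 4.55% higher, in the first and second comparison. Of 8 oligodendrocyte precursor markers 4 fell in each comparison, Olig1 with log2 fold changes of -1.33 and -1.36, Olig2 of -0.98 and -1.15, and Pdgfra and Cspg4. The 8 together were at 1038 to 1127 CPM without DAPT and 563 to 634 CPM with it. Without Olig1 and Olig2, likewise looked at after the values were seen, the ranges of the other 6 overlapped (239 to 291 CPM and 236 to 278 CPM). Gpr17 and Neu4 had positive log2 fold changes that were not called. Of 8 radial glia markers 4 fell in each (Fabp7, Hes5, Nes and Slc1a3), Fabp7 with log2 fold changes of -1.93 and -1.86. The 8 together were at 4732 to 5531 CPM and 2763 to 3142 CPM. Without Fabp7, a sum looked at after the values were seen, the ranges of the other 7 overlapped (2144 to 2480 CPM and 2021 to 2354 CPM). Of the 8, 4 had positive log2 fold changes in each comparison, such as Vim (0.12 and 0.08), none of them called. Of 10 neuron markers 5 rose in the first comparison and 3 in the second (medians 0.30 and 0.27), with Syt1 (0.40) and Snap25 (0.38) highest in the first. The 10 together were at 1043 to 1267 CPM without DAPT and 1346 to 1581 CPM with it. The 8 astrocyte markers together ranged from 5278 to 6247 CPM and from 6034 to 6773 CPM, with Gja1 higher and Aldh1l1 and Aldoc lower. The 8 markers tested of pericytes, smooth muscle and fibroblasts together were at 112.1 to 129.9 CPM without DAPT and 91.4 to 111.7 CPM with it, with 4 lower and 2 higher in each comparison. Microglia markers (8, with 1 and 2 lower) and ependymal markers (6, none called in edgeR, with 2 and 1 at an unadjusted p under 0.05) overlapped. Endothelial markers were near 0, with 4 tested at 4.16 to 5.86 CPM in sum, and the endothelial markers Flt1 and Tek were under the filter, as was the smooth muscle marker Myh11. Whether the levels of these cell types account for part of the fall of the spindle kinesins, Kif1c and Kifc3 or of the higher level of Kifc2 was not tested.

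The last question was whether sErbB4, given for 4 h, changed kinesins by itself or changed the effect of DAPT. In sErbB4 against vehicle 0 of 38 kinesins were called in edgeR (background 0.0319%, 5 genes), and the smallest adjusted p of a kinesin was 0.38. An unadjusted p under 0.05 was reached by 6 of 38, against 1184 of 15656 genes. In DAPT + sErbB4 against DAPT 0 of 38 were called (background 0%), and the smallest adjusted p was 0.34. There 5 of 38 had an unadjusted p under 0.05, against 1442 of 15656 genes. DESeq2 and limma called 0 kinesins in each of these comparisons as well. For the spindle kinesins the 95% intervals of the log2 fold change reached at most from -0.98 to 0.51 in the first and from -0.76 to 0.72 in the second comparison, and for the transport kinesins from -0.25 to 0.35 and from -0.27 to 0.35. The libraries thus bound a change of the transport kinesins more closely than one of the spindle kinesins, which have fewer counts. Some intervals may be too narrow: that of Kif18b in the second comparison ran from -0.76 to -0.01 at an unadjusted edgeR p of 0.053.

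**Figure D5:**
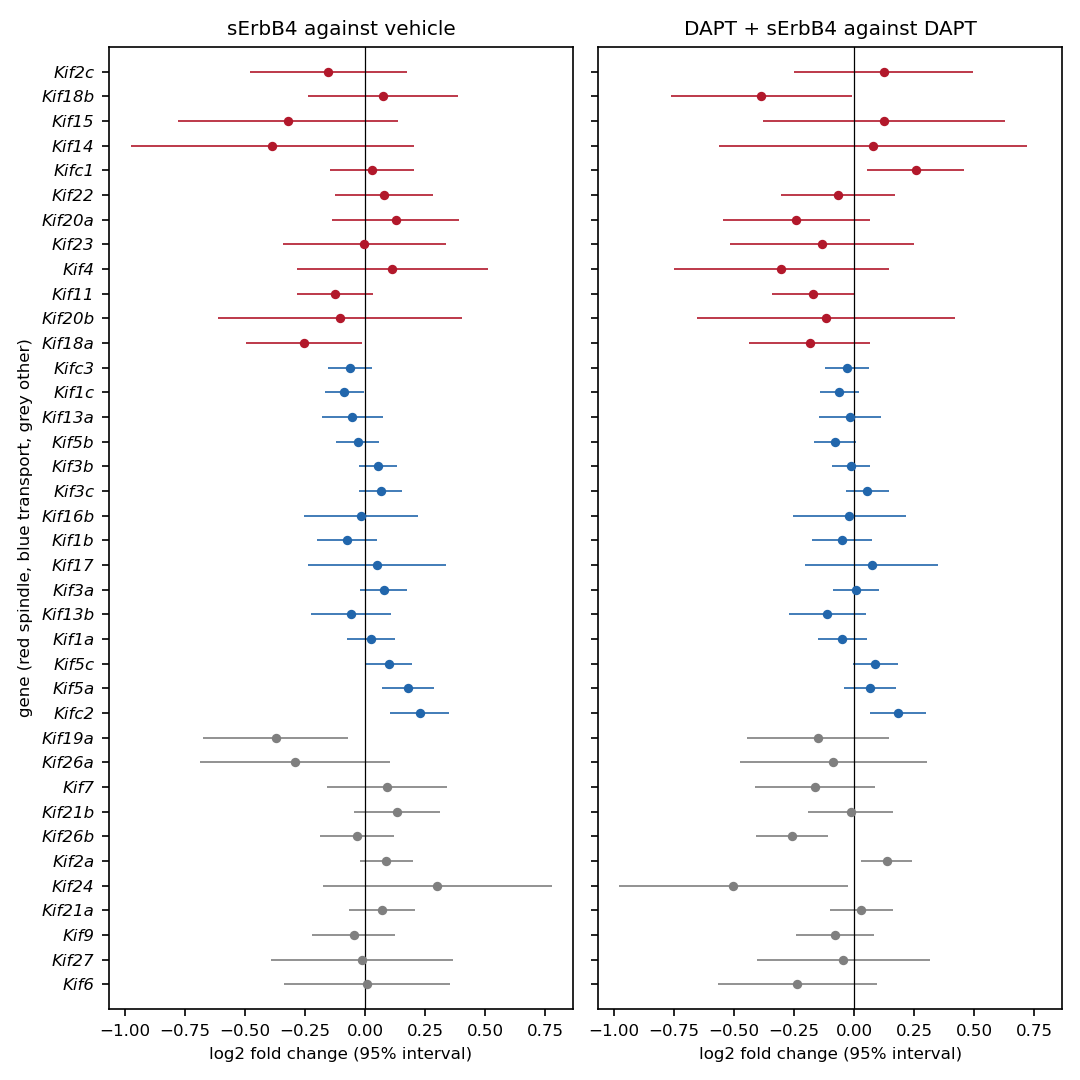
Log2 fold change of each of the 38 kinesin genes in sErbB4 against vehicle (left) and in DAPT + sErbB4 against DAPT (right), with 95% intervals as bars and genes in the same order as in the plot by library. No gene passed the test, and the widest intervals in each panel are those of genes with few counts, Kif14, Kif20b, Kif15 and Kif24.

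Single kinesins had these values. Kif11 was at -0.13 (SE 0.07, adjusted p = 0.80) with sErbB4 alone and -0.17 (SE 0.08, adjusted p = 0.70) on top of DAPT. Kif18b had the lowest value of the spindle class on top of DAPT, -0.39 (SE 0.17, adjusted p = 0.55), and Kifc1 the highest, 0.26 (SE 0.09, adjusted p = 0.51). Among the neuronal motors Kif5a had 0.18 (SE 0.05, adjusted p = 0.45) and 0.07 (SE 0.05, adjusted p = 0.76), Kif5c 0.10 (SE 0.04, adjusted p = 0.64) and 0.09 (SE 0.04, adjusted p = 0.58), and Kifc2 0.23 (SE 0.06, adjusted p = 0.38) and 0.18 (SE 0.05, adjusted p = 0.36). The sErbB4 libraries of Kifc2 lay above all vehicle libraries, and its DAPT + sErbB4 libraries above all DAPT libraries, but neither difference passed the test over all genes. The neuron markers showed the same order. All 10 had positive log2 fold changes in each comparison (medians 0.19 and 0.14), with 7 and 4 at an unadjusted p under 0.05 and 0 called. Their sum was 1043 to 1149 CPM in vehicle, 1181 to 1267 in sErbB4, 1346 to 1402 in DAPT and 1492 to 1581 in DAPT + sErbB4. Whether this accounts for the values of Kifc2, Kif5a and Kif5c was not tested. The cilium motor Kif19a had -0.37 (SE 0.14, adjusted p = 0.59) with sErbB4 alone. The difference between the DAPT effects with and without sErbB4 was called for 0 of 38 kinesins in edgeR (background 0.00639%, 1 gene). An unadjusted p under 0.05 was reached by 2 of 38, against 565 of 15656 genes, and DESeq2 and limma called 0 kinesins too. That difference ranged from -0.46 for Kif18b to 0.46 for Kif14 among the spindle kinesins, from -0.11 to 0.03 among the transport kinesins, and from -0.80 for Kif24 to 0.22 for Kif19a among the others.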

How the data were processed

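Reads were poly-A selected, and per the study's methods and the submitters' processing notes the authors used Trimmomatic for trimming, HISAT2 for alignment to mm10, StringTie for assembly and IsoformSwitchAnalyzeR for gene values. Versions and the strand used in counting are not given in the sources used here. What the authors deposited is an estimated count for each gene in each library, without scaling across libraries. It may have been corrected for length, so levels of different genes were not compared, other than to choose which to name. Counts were rounded to whole numbers. Loci with no gene name (1976 loci, 43.4 to 51.8% of a library's counts) entered neither library sizes nor tests. With edgeR 4.0.16 in R 4.3.3, counts were TMM scaled, filtered by filterByExpr and fitted with a mean for each of 4 groups (8 residual degrees of freedom). SE is the log2 fold change over the square root of F. For some genes, such as Kif11, Kif18b and Kifc1 in DAPT + sErbB4 against DAPT, the edgeR p was larger than this SE gives. SEs and intervals of such genes may be too narrow. DESeq2 1.42.0, limma 3.58.1 on log2(CPM + 2), other filters, a replicate block and left-out libraries were alternatives. Intervals cover only the spread between libraries within groups, estimated jointly over the 4 groups and with help from other genes. Every spindle and transport kinesin is named, and from each other list up to 4 called genes of at least 5 CPM with the largest change. Replicate numbers are not stated to pair libraries. Deviations of same-numbered vehicle and DAPT libraries correlated at 0.24, 0.30 and 0.12, and those of sErbB4 and DAPT + sErbB4 at -0.012, -0.28 and 0.092. Those of DAPT and DAPT + sErbB4 correlated at 0.36, 0.10 and 0.025, and those of vehicle and sErbB4 at -0.18, 0.18 and -0.047. Libraries of different numbers were not compared, so these values do not show whether the numbers pair libraries. Blocked values stand beside the calls they change. Members, lists and motifs were chosen with earlier results of these data known. Gene positions are from GENCODE M21 and promoters from RefSeq, GRCm38.p6.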

Additional observations from a re-analysis of the deposited data

How the results depend on the processing

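The counts of kinesins called in the 2 sErbB4 comparisons and in the difference between the DAPT effects stayed at 0 under every alternative run. The count of kinesins lower in DAPT against vehicle and in DAPT + sErbB4 against sErbB4 was 12 to 17 under all alternatives but a filter at a mean of 5 CPM, which kept few spindle kinesins and gave 4 in each (2 of them of the spindle class). With no fold limit 8 and 6 kinesins were higher, of which 5 and 3 of the transport class and 3 and 3 of the microtubule end and ciliary class, and 5 transport kinesins were lower in the second comparison. limma gave 2 higher transport kinesins in the first comparison and 0 higher of the microtubule end and ciliary class in each, so 0 higher kinesins in the second; the pseudocount shrinks changes of genes with few counts. Microtubule end and ciliary kinesins that were higher in the first comparison numbered 2 with the 5 CPM filter, with unnamed loci kept, and with vehicle 3 and sErbB4 1 both left out (an alternative chosen after seeing the data), and with the latter 2 kinesins, both of that class, were higher in the second. Leaving out 1 library at a time gave 13 to 14 lower and 1 to 4 higher kinesins in the first comparison and 12 to 14 and 0 to 2 in the second, with 11 to 12 and 10 to 12 spindle kinesins lower, 0 to 2 transport kinesins higher in the first, and 0 to 2 higher of the microtubule end and ciliary class in each.

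Over all groups, 8 of 18 same-numbered pairs correlated over 0.1, including all 3 of vehicle and DAPT. With the replicate number as a block, 13 kinesins were lower in each comparison and 2 and 1 higher; Kif20b in the first (adjusted p = 0.051) and Kif14 in the second (adjusted p = 0.061) were no longer called, and no other kinesin call changed. DESeq2 also lost these 2 calls (adjusted p = 0.051 and 0.14). Apart from leaving out 1 library, 8 alternatives tested each of these genes. The call of Kif14 in the second comparison was lost in 6 of the 8. That of Kif20b was lost in 3 of 8 in the first comparison and in 1 of 8 in the second. Values near 0 changed sign. Under limma Kif16b had -0.031 and -0.017 and Kif3c 0.026 and 0.000745 in the first and second comparison, and with unnamed loci kept Kif3c had 0.010 and Kif7 0.0053 in the first. With 1 library left out, the first comparison gave ranges of -0.13 to 0.15 for Kif16b, -0.016 to 0.059 for Kif21b, -0.14 to 0.058 for Kif26a, -0.044 to 0.025 for Kif3c and -0.090 to 0.058 for Kif7, and the second gave -0.0047 to 0.023 for Kif16b, -0.052 to 0.24 for Kif19a, -0.010 to 0.12 for Kif1b and -0.0096 to 0.26 for Kif6. Depth limits the spindle kinesins with few counts most: the SE of the DAPT effect was 0.28 for Kif14 and 0.24 for Kif20b, against 0.04 for Kif1c.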
